A study of Mus musculus with 7 samples.

Results

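Mitosis and spindle genes were followed in plantaris muscle of Pax7-DTA mice after 1 week of overload. The list holds 36 genes that act in mitosis, from the cyclins and Cdk1 to the machinery of cytokinesis. A gene entered through probe sets whose platform annotation names it alone, and its probe set with the highest mean log2(signal + 1) over all arrays represents it. Of the 36 genes 35 were measured among 18193 genes in all, and Ccnb1 was not analysed here.

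Expression was measured on 7 Affymetrix Mouse 430 2.0 arrays. Every mouse carried Pax7-CreER and Rosa26-DTA and was 4 months old. In this cross tamoxifen activates a Cre recombinase made under the Pax7 gene, which switches on diphtheria toxin A in satellite cells, the stem cells of muscle, where Pax7 acts as a transcription factor. The groups were tamoxifen with overload (n = 3, replicates 1 and 2 male and replicate 3 female), vehicle with overload (n = 2, replicate 1 female and replicate 2 male), tamoxifen with sham surgery (n = 1, male) and vehicle with sham surgery (n = 1, male). Overload was made by synergist ablation, in which muscles that work alongside the plantaris are removed. The titles read as single mice, but the design text speaks of muscles pooled from 11 animals. The number of animals behind an array is therefore uncertain, and the spread between arrays may be technical in part. Neither sham group has a replicate, and the fit gives these arrays the spread found in overload.

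Median signals were 88.2 to 127.7 per array, and the 3'/5' ratios of Gapdh 0.807 to 0.906. Both were highest on tamoxifen overload replicate 2, which stood apart for these genes and is returned to below its group's results. Pax7 had a signal of 57.9, 10.0 and 120 on the tamoxifen overload arrays, against 274 and 349 on the vehicle overload arrays. On the sham arrays Pax7 had 41.2 with tamoxifen and 92.8 with vehicle. Its difference in overloaded muscle, -2.67 ± 0.81 (log2, SE of limma), did not pass limma's test after Benjamini-Hochberg adjustment over all genes (adjusted p = 0.399). Muscle fibre genes gave the brightest signals of the marker lists with Ckm between 24310 and 33943 and Acta1 between 23265 and 34422. A level was called above background where it passed a signal of 53.6, the 95th percentile of the mean levels of 77 olfactory, vomeronasal and taste receptor genes.

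Entry into mitosis is driven by Cdk1 bound to cyclin A or B, and exit by the anaphase-promoting complex, which marks the cyclins for destruction. Between them, kinesins and kinetochore proteins build the spindle and hold the chromosomes to it, the spindle checkpoint delays anaphase until all are attached, and the central spindle then guides the cleavage of the cell. Mature muscle fibres do not divide. Cells that can divide in injured or growing muscle include satellite cells, macrophages, endothelial cells and fibro-adipogenic progenitors. Many of these genes are read from promoters with a cell cycle homology region (CHR, with the letters TTTGAA or, in other promoters, TTCGAA) and with CCAAT boxes, elements known to be bound by DREAM or MuvB complexes and by NF-Y.

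Promoter windows were taken from RefSeq (build GRCm38.p6), each running from 250 bases before to 50 bases after a start site, and are given 5' to 3' on the strand of the gene. They are shown for Cdk1 and Ccnb2, the kinase of mitotic entry and its cyclin. Also shown are Bub1 and Prc1, of the checkpoint and the spindle, which were called higher in overload, and Aurka, whose probe set went the other way. Capitals mark both forms of the CHR and the CCAAT box on either strand, so that ATTGG is a CCAAT box of the opposite strand. The windows are chr10:69352863-69353162 (minus strand) for Cdk1, chr9:70421505-70421804 (minus) for Ccnb2, chr2:127831810-127832109 (minus) for Bub1, chr7:80294201-80294500 (plus) for Prc1 and chr2:172370521-172370820 (minus) for Aurka.
Cdk1: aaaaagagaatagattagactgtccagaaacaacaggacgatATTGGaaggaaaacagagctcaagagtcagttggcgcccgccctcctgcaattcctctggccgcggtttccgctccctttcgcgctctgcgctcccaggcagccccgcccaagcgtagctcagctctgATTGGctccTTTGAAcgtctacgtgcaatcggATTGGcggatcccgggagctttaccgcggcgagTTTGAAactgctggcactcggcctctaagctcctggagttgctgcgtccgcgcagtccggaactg
Ccnb2: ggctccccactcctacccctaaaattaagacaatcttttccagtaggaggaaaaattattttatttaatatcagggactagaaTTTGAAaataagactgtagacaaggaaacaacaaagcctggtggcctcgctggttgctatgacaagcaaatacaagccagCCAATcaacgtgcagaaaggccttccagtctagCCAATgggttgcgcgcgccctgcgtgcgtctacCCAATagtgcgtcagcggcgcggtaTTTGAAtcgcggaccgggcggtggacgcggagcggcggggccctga
Bub1: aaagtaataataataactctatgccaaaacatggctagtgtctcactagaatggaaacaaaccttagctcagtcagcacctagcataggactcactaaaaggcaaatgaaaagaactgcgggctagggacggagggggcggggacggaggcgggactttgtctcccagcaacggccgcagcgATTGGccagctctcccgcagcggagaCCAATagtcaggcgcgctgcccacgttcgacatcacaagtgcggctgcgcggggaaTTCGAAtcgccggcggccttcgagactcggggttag
Prc1: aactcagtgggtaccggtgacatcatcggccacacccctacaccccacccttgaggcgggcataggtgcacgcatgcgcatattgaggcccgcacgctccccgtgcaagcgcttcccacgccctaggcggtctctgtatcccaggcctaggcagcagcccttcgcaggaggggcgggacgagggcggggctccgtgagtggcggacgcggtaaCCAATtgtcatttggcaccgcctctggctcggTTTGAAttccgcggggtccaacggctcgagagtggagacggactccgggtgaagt
Aurka: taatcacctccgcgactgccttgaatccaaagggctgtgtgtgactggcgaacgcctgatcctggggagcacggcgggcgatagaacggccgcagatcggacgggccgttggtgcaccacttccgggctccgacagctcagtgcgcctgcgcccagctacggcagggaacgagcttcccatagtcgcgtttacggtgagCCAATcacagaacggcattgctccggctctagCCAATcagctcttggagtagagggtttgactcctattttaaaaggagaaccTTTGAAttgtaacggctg

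The Cdk1 window holds 2 CHR matches and 3 CCAAT matches, that of Ccnb2 likewise 2 and 3, that of Bub1 1 and 2, that of Prc1 1 and 1, and that of Aurka 1 and 2. Over the list, 34 windows of 32 genes were found, and Ccna2, Aurkb, Kif20a and Tpx2 had none in the table. A CHR match stood in 28 member windows (82.4%), against 19.2% of all 32851 windows. CCAAT stood in 79.4% of member windows, against 37.4% of all windows, and both stood together in 73.5%, against 7.52%. In 1 member window a match of each kind shared a base, and TTCGAA, which reads the same on both strands, was counted once. Position set the windows further apart: a CHR match within 50 bases of the start was found in 76.5% of member windows, against 5.31% of all windows. The match nearest the start lay at positions from -103 to 41, counted from the start site, with a median of 7. Of 60 other mitotic genes that are not on the list, 56 windows were found and 58.9% held a CHR match, while of 30 windows of S phase and replication genes 16.7% did. No CHR match was found in the windows of Ccnb1, Birc5, Mad2l1, Cenpe, Nuf2 and Nusap1. These matches describe the letters of the windows only.

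**Figure D1:**
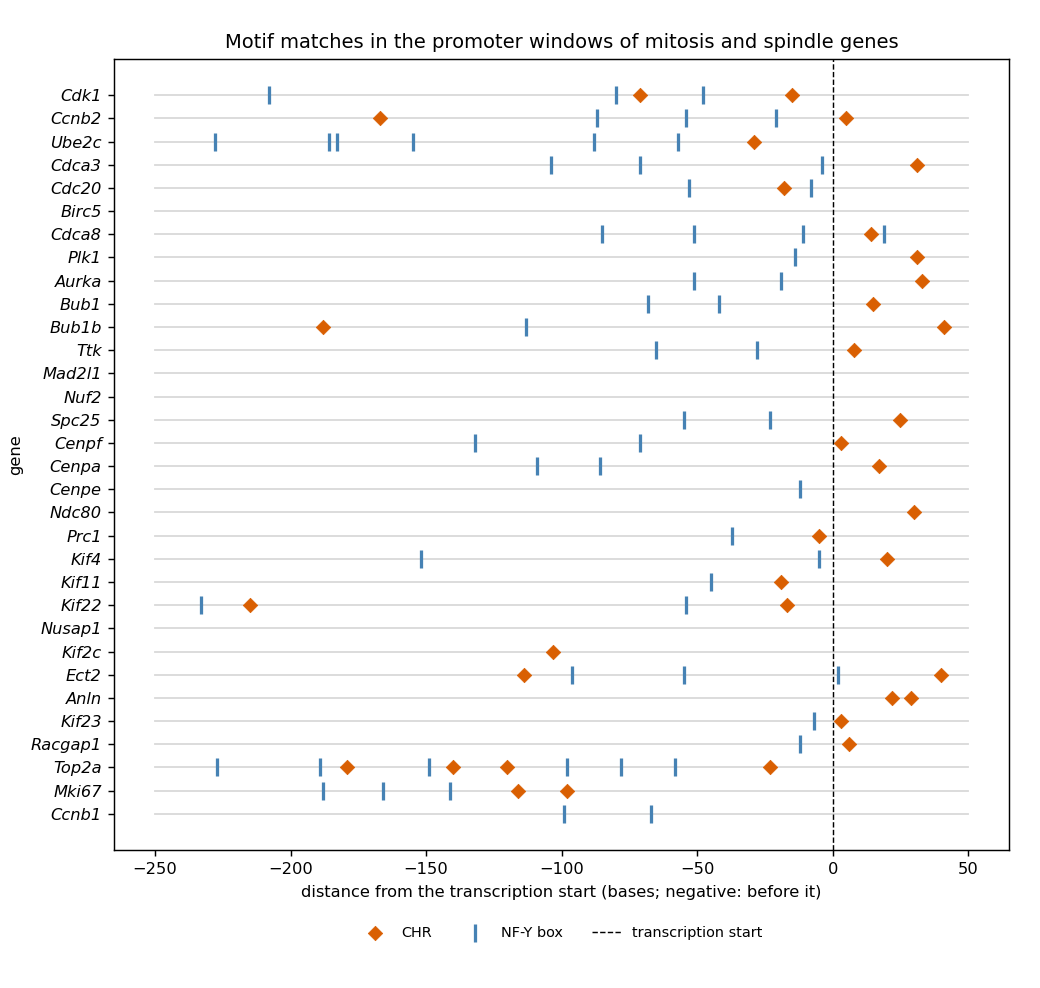
Matches to the CHR (diamonds) and the CCAAT box (bars, named NF-Y box in the key) on either strand in the promoter window of each gene, by the distance of the match's first base from the transcription start in bases, with 1 window per gene. Most diamonds lie within 50 bases of the start, as 76.5% of member windows hold one there.

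The first question was what overload did to these genes, with 5 overload arrays set against 2 sham arrays and both treatments weighted equally. Nearly the whole list was higher in overloaded muscle. With limma, 30 of 35 genes rose (adjusted p under 0.05), against 14.7% of all 18193 genes, and 1 fell, Aurka, against 8.16% of all genes. Plk1, Cenpe, Ndc80 and Kif2c did not pass. Among all called genes 64.3% were higher, or 39.1% with each array centred on its median, where the median of the list was 2.00 and that of all genes -0.22. The median difference of the list was 2.30 (log2), against 0.07 over all genes, and it was 1.75 with 12 genes that were at or below background on both sham arrays set at the lowest difference their values allow. For 32 genes all 5 overload arrays lay above both sham arrays, against 23.1% of all genes. In bulk muscle, more dividing cells and more transcript per cell cannot be told apart.

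In sham muscle most of the list was near background. On both sham arrays 12 genes were above it, 10 were above it on 1 of them and 13 on neither. In overloaded muscle 34 genes were above it on all 5 arrays, the exception being Ndc80. The summed signal of the 35 genes was 8856, 16326 and 9661 on the tamoxifen overload arrays and 10436 and 7396 on the vehicle overload arrays, against 3370 on the tamoxifen sham array and 2671 on the vehicle sham array. Aurka alone gave 1010.1 and 838 of the sham sums. The calls depend on limma's variance model. With the sex term kept and variances not tied to signal level, no gene of the 18193 was called. At an unadjusted p under 0.05, 31 of the 35 were higher there. In the main fit 33 of the 35 were under that level in either direction, as were 6292 of all 18193 genes. With the sex term left out as well, 26 of the 35 were called higher and 1 lower, against 2130 and 747 of all genes.

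**Figure D2:**
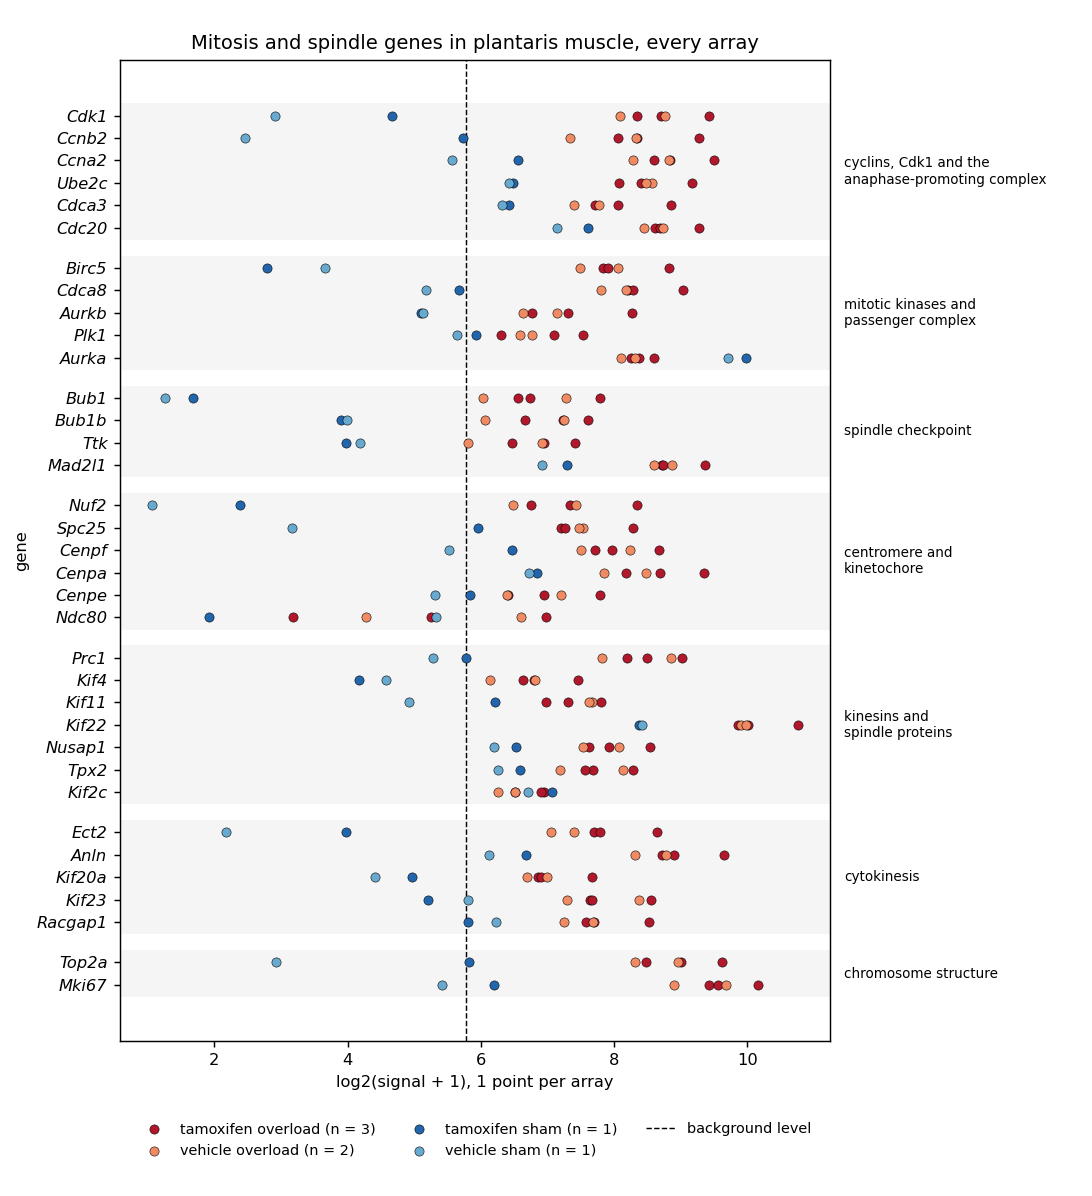
Level of each mitosis and spindle gene, as log2(signal + 1), on every array, with 1 point per array, genes grouped by role and the dashed line at the background level of 5.77. For 32 genes the 5 overload points lie right of both sham points, Aurka lies the other way round, and Ndc80 and Kif2c overlap.

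Of the cyclins, Cdk1 and the anaphase-promoting complex, 6 of 6 measured genes rose. Cdk1, the kinase of mitotic entry, had a signal of 325, 685 and 417 on the tamoxifen overload arrays and 434 and 270.0 on the vehicle overload arrays, against 24.4 on the tamoxifen sham array and 6.5 on the vehicle sham array. Both sham arrays were below background and every overload array was well above it, so Cdk1 was at least 7.43-fold higher (adjusted p = 0.000283). An adjusted p beside such a bound, here and below, belongs to limma's fitted difference and not to the bound. Ccnb2 (cyclin B2), the partner of Cdk1, was at least 5.65-fold higher. Ccna2 (cyclin A2), which acts from S phase into early mitosis, rose by 2.65 ± 0.32. Ube2c, the ubiquitin-conjugating enzyme of the anaphase-promoting complex, rose by 2.13 ± 0.34, and Cdca3, which helps to remove the Cdk1 inhibitor Wee1, by 1.52 ± 0.38. Cdc20, which activates the anaphase-promoting complex, had 391, 618 and 410.3 with tamoxifen and overload and 423 and 347 with vehicle and overload, against 194 and 140.2 on the tamoxifen and vehicle sham arrays. Its rise of 1.36 ± 0.26 was the smallest of the 6, with no overlap between groups. A second Cdc20 probe set, above background on all overload arrays, rose by 2.89. The mean over the Cdca3 probe sets, given below, takes in sets above background on 0 arrays and on 1 array. Without the vehicle sham array Cdc20 did not pass (1.12, adjusted p = 0.065) and Cdca3 did not either (1.46, adjusted p = 0.0879). Cdca3 also missed without the tamoxifen sham array (1.57, adjusted p = 0.0567), without vehicle overload replicate 2 (1.77, adjusted p = 0.0541), with quantile normalization (1.26, adjusted p = 0.0624) and with the mean of its probe sets (0.69, adjusted p = 0.261).

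The mitotic kinases and the chromosomal passenger complex split. Of 5 genes 3 rose, 1 fell and 1 did not pass. Birc5 (survivin), a passenger subunit, had a signal of 226, 454 and 238 with tamoxifen and overload and 266 and 178 with vehicle and overload, against 5.9 on the tamoxifen sham array and 11.6 on the vehicle sham array. It was below background in sham muscle and at least 4.75-fold higher in overloaded muscle (adjusted p = 0.000428). Cdca8 (borealin), another passenger subunit, was at least 5.78-fold higher. Aurkb, the kinase of that complex, had 108, 308 and 158 with tamoxifen and overload and 141 and 98.6 with vehicle and overload, against 33.5 and 34.2 on the tamoxifen and vehicle sham arrays. The groups did not overlap and Aurkb was at least 2.74-fold higher (adjusted p = 0.0229). The call was lost without vehicle overload replicate 2 (adjusted p = 0.0552), without the tamoxifen sham array (adjusted p = 0.0611) and without the vehicle sham array (adjusted p = 0.0735). Plk1, polo-like kinase, which acts at centrosomes, kinetochores and the midzone, had 136, 184 and 78.0 with tamoxifen and overload and 108 and 95.3 with vehicle and overload, against 59.6 and 48.8 on the tamoxifen and vehicle sham arrays. All overload arrays of Plk1 were above the sham arrays, but the difference of 1.26 ± 0.41 did not pass (adjusted p = 0.0601). It did pass in a model without the interaction (adjusted p = 0.0469) and when genes with a mean below background were left out (adjusted p = 0.0335).

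Aurka, the kinase of centrosomes and spindle poles, ran against the list. Its signal was 332, 388 and 304 on the tamoxifen overload arrays and 318 and 273 on the vehicle overload arrays, against 1010.1 on the tamoxifen sham array and 838 on the vehicle sham array. Every overload array lay below both sham arrays, as for 18.3% of all genes, with a fall of 1.52 ± 0.20 on the log2 scale (adjusted p = 0.00161). It is also the member with the smallest spread among overload arrays (SD 0.19 on the log2 scale, against a median of 0.48 over the list). The call hangs on 1 probe set. A second Aurka probe set was below background on all 7 arrays, with 20.4, 18.0 and 4.9 with tamoxifen and overload and 3.6 and 4.2 with vehicle and overload, against 2.2 and 2.6 on the tamoxifen and vehicle sham arrays. With the mean of both probe sets the difference of Aurka was 0.09 (adjusted p = 0.918). Whether the first probe set reads the Aurka transcript alone was not tested.

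All 4 genes of the spindle checkpoint rose. Bub1, a checkpoint kinase at kinetochores, had a signal of 93.6, 219 and 106 with tamoxifen and overload and 154 and 64.5 with vehicle and overload, against 2.2 on the tamoxifen sham array and 1.4 on the vehicle sham array. Sham signals were far below background, where folds are not measurable, and Bub1 was at least 2.15-fold higher (adjusted p = 0.00115). Bub1b (BubR1), part of the mitotic checkpoint complex, was at least 2.28-fold higher, and Ttk (Mps1), the kinase that starts checkpoint signalling, at least 1.92-fold higher. Mad2l1 (Mad2), which holds Cdc20 inactive, had 418, 656 and 424 with tamoxifen and overload and 468 and 387 with vehicle and overload, against 156 and 120.1 on the tamoxifen and vehicle sham arrays. It was above background on all arrays, its groups did not overlap, and it rose by 1.75 ± 0.26 (adjusted p = 0.00309).

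Of the 6 centromere and kinetochore genes 4 rose and Cenpe and Ndc80 did not pass. Nuf2 and Ndc80, with Spc25, encode subunits of the Ndc80 complex, which binds spindle microtubules. Nuf2 had a signal of 106, 323 and 160.4 with tamoxifen and overload and 172 and 88.2 with vehicle and overload, against 4.2 on the tamoxifen sham array and 1.1 on the vehicle sham array. It was at least 2.82-fold higher (adjusted p = 0.000945). Ndc80 had 8.1, 126 and 36.9 with tamoxifen and overload and 96.1 and 18.3 with vehicle and overload, against 2.8 and 39.1 on the tamoxifen and vehicle sham arrays. Its overload arrays spread over the sham values, from 8.1 to 126, and its difference of 1.21 ± 1.10 did not pass (adjusted p = 0.498). Ndc80 has 1 probe set, above background on 2 arrays.

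Spc25 rose by 3.08 ± 0.42 in the mean of both treatments, with 8.0 on the vehicle sham array and 61.4 on the tamoxifen sham array, and its difference ran from 1.37 to 4.48 over the alternatives. Without the vehicle sham array it was 1.68 (adjusted p = 0.0624). Cenpa, the histone that marks centromeres, rose by 1.76 ± 0.37, and Cenpf, a kinetochore protein, by 1.92 ± 0.38. Without the vehicle sham array neither passed (Cenpa 1.70, adjusted p = 0.0521, and Cenpf 1.44, adjusted p = 0.0848), and with the mean of its probe sets Cenpa came to 0.78 (adjusted p = 0.260). The kinesin Cenpe, which carries chromosomes to the spindle equator, had a difference of 1.24 ± 0.49 (adjusted p = 0.114) and passed without tamoxifen overload replicate 1 (1.52, adjusted p = 0.0248). Of 38 probe sets of the list that were not chosen, 28 had a positive difference. By limma 16 were called higher, 0 lower and 22 were not called, while 4405 of all 34945 probe sets were called higher. Of 15 that were above background on all overload arrays 12 were called higher. That filter itself favours sets that are higher in overload, so the 12 cannot speak for the chosen sets. A second Spc25 probe set gave -0.35 (adjusted p = 0.603), with its groups overlapping. The mean over the Cenpa probe sets takes in a set above background on 0 arrays.

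Kinesins and spindle proteins rose in 6 of 7 cases. Prc1, which bundles microtubules in the central spindle, had a signal of 293, 517 and 359.7 with tamoxifen and overload and 463 and 225 with vehicle and overload, against 53.9 on the tamoxifen sham array and 37.9 on the vehicle sham array. The overload arrays were all above the sham arrays, and Prc1 rose by 2.77 ± 0.36 (adjusted p = 0.00172). Kif4, a chromokinesin that works with Prc1, was at least 2.00-fold higher, while Kif11 (Eg5), the motor that pushes spindle poles apart, and Kif22 (Kid), which moves chromosome arms, rose by 1.95 ± 0.35 and 1.81 ± 0.24. Nusap1, which stabilises spindle microtubules, and Tpx2, which activates Aurora A on the spindle, rose by 1.49 ± 0.35 and 1.26 ± 0.38. Kif2c (MCAK), which takes microtubules apart at centromeres, had 123, 118 and 89.8 with tamoxifen and overload and 75.1 and 90.1 with vehicle and overload, against 132 and 104 on the tamoxifen and vehicle sham arrays. Its groups overlapped and the difference of -0.16 ± 0.32 did not pass (adjusted p = 0.781).

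Probe sets of Kif2c disagreed. One that was not chosen had a signal of 81.2, 276 and 63.8 with tamoxifen and overload and 96.4 and 96.5 with vehicle and overload, against 17.2 and 1.2 on the tamoxifen and vehicle sham arrays, so it was below background on both sham arrays and at least 1.96-fold higher in overloaded muscle (adjusted p = 0.00333). Another, likewise below background on the sham arrays and with no overlap, did not pass (adjusted p = 0.0517). The call for Kif2c therefore depends on the probe set. For Tpx2 another set had 66.8, 63.0 and 56.5 with tamoxifen and overload and 72.6 and 75.3 with vehicle and overload, against 127.7 and 77.4 on the tamoxifen and vehicle sham arrays (-0.49, adjusted p = 0.396). Tpx2 was the least stable call, with adjusted p = 0.105 without tamoxifen overload replicate 2, 0.0767 without the tamoxifen sham array and 0.184 without the vehicle sham array, at differences of 1.01, 1.43 and 1.09. It was also lost with quantile normalization (0.99, adjusted p = 0.118), median centring (0.97, adjusted p = 0.0801), a pseudocount of 16 (1.14, adjusted p = 0.0639) and the mean of its probe sets (0.24, adjusted p = 0.706). Without the vehicle sham array Kif11 gave 1.30 (adjusted p = 0.0894) and Nusap1 1.33 (adjusted p = 0.0888), and with the mean of its probe sets Nusap1 gave 0.83 (adjusted p = 0.159). The chosen sets of Aurkb, Kif22 and Cdca8 are of the kind whose probes may match other transcripts, as the suffix of their names records. So are the second Cdc20 set given above and the Kif2c set that was at least 1.96-fold higher. The mean over the Nusap1 probe sets takes in a set above background on 0 arrays.

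All 5 cytokinesis genes rose. Ect2, which activates the small GTPase RhoA at the cleavage site, had a signal of 207, 400.4 and 219.6 with tamoxifen and overload and 168 and 132 with vehicle and overload, against 14.8 on the tamoxifen sham array and 3.5 on the vehicle sham array. It was at least 3.86-fold higher (adjusted p = 0.000471). Kif20a, a kinesin of the midzone, was at least 2.38-fold higher. Anln (anillin), the scaffold of the contractile ring, rose by 2.40 ± 0.32, and Kif23 (MKLP1), which forms centralspindlin with Racgap1, by 2.30 ± 0.43. Racgap1 had 191, 366 and 207 with tamoxifen and overload and 204 and 150.4 with vehicle and overload, against 55.1 and 73.7 on the tamoxifen and vehicle sham arrays. Its groups did not overlap and it rose by 1.69 ± 0.37 (adjusted p = 0.0146), or by 1.48 without the tamoxifen sham array (adjusted p = 0.0618). A second Anln probe set was below background on all arrays, and with the mean of both sets Anln was not called (0.64, adjusted p = 0.471).

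Mki67 and Top2a are used as markers of cycling cells. Mki67 (Ki-67), which coats mitotic chromosomes, had a signal of 682, 1142 and 753 with tamoxifen and overload and 822 and 477 with vehicle and overload, against 72.0 on the tamoxifen sham array and 41.8 on the vehicle sham array. The lowest overload array was above the highest sham array, and Mki67 rose by 3.61 ± 0.31 (adjusted p = 0.000319). Top2a, the topoisomerase that untangles sister chromatids, had 357, 784 and 509.8 with tamoxifen and overload and 498 and 317 with vehicle and overload, against 55.7 and 6.6 on the tamoxifen and vehicle sham arrays. It too was separated and was called higher (adjusted p = 0.000337). Its vehicle sham value is below background and its tamoxifen sham value near it, and the fitted difference ran from 1.96 to 5.80 over the alternatives, so the size is uncertain. On the vehicle sham array both were below background, and on the tamoxifen sham array both were above it by a small margin.

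The next question was whether the response was there with and without tamoxifen. With tamoxifen 25 of 35 genes rose, against 9.98% of all genes, and 1 fell, against 4.9%. With vehicle 19 rose, against 6.35% of all genes, and 1 fell, against 2.44%. Each contrast rests on 1 sham array. Called with both treatments were 16 genes, among them Cdk1, Ccnb2, Ccna2, Bub1, Nuf2, Mki67 and Top2a. Called with tamoxifen alone were Cdc20, Cdca3, Aurkb, Bub1b, Ttk, Cenpa, Kif4, Kif23 and Racgap1, and with vehicle alone Cenpf, Spc25 and Kif11. Aurka fell with both, by 1.56 ± 0.25 with tamoxifen and by 1.48 ± 0.28 with vehicle. A call with 1 treatment alone does not show a difference between them, and the interaction, which tests it, called 0 genes of the list and 0% of all genes by limma. At an unadjusted p under 0.05 the interaction held 4 genes of the list, and 1021 of all 18193 genes in either direction. The 4 were Spc25, Top2a, Ccnb2 and Kif11, all with a smaller rise with tamoxifen (limma, lowest adjusted p = 0.745). The vehicle sham signals of these genes, 8.0, 6.6, 4.5 and 29.2, were all below background. With a pseudocount of 16 the interaction held 1 gene at that level, and with male arrays alone 2.

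On the overload arrays Ccnb2 had 267, 619 and 323 with tamoxifen and 321 and 160.2 with vehicle, which overlap. In sham muscle Ccnb2 had 52.4 on the tamoxifen sham array and 4.5 on the vehicle sham array, both at or below the background signal of 53.6. Over the list, 26 of 35 genes were higher on the tamoxifen sham array than on the vehicle sham array, against 52.9% of all genes, with a median difference of 0.38, against 0.03 over all genes. With 1 array a group this difference has no test. The macrophage marker list had the same direction between these arrays, with 15 of 16 genes higher on the tamoxifen sham array and a summed signal of 12459 there, against 7077 on the vehicle sham array. Markers of fibroblasts and fibro-adipogenic progenitors did too, with 12 of 13 higher and a median difference of 0.37. Of satellite cell and myoblast markers 10 of 14 were higher there, and of muscle fibre markers 1 of 14. The part of these lists in the difference was not tested.

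**Figure D3:**
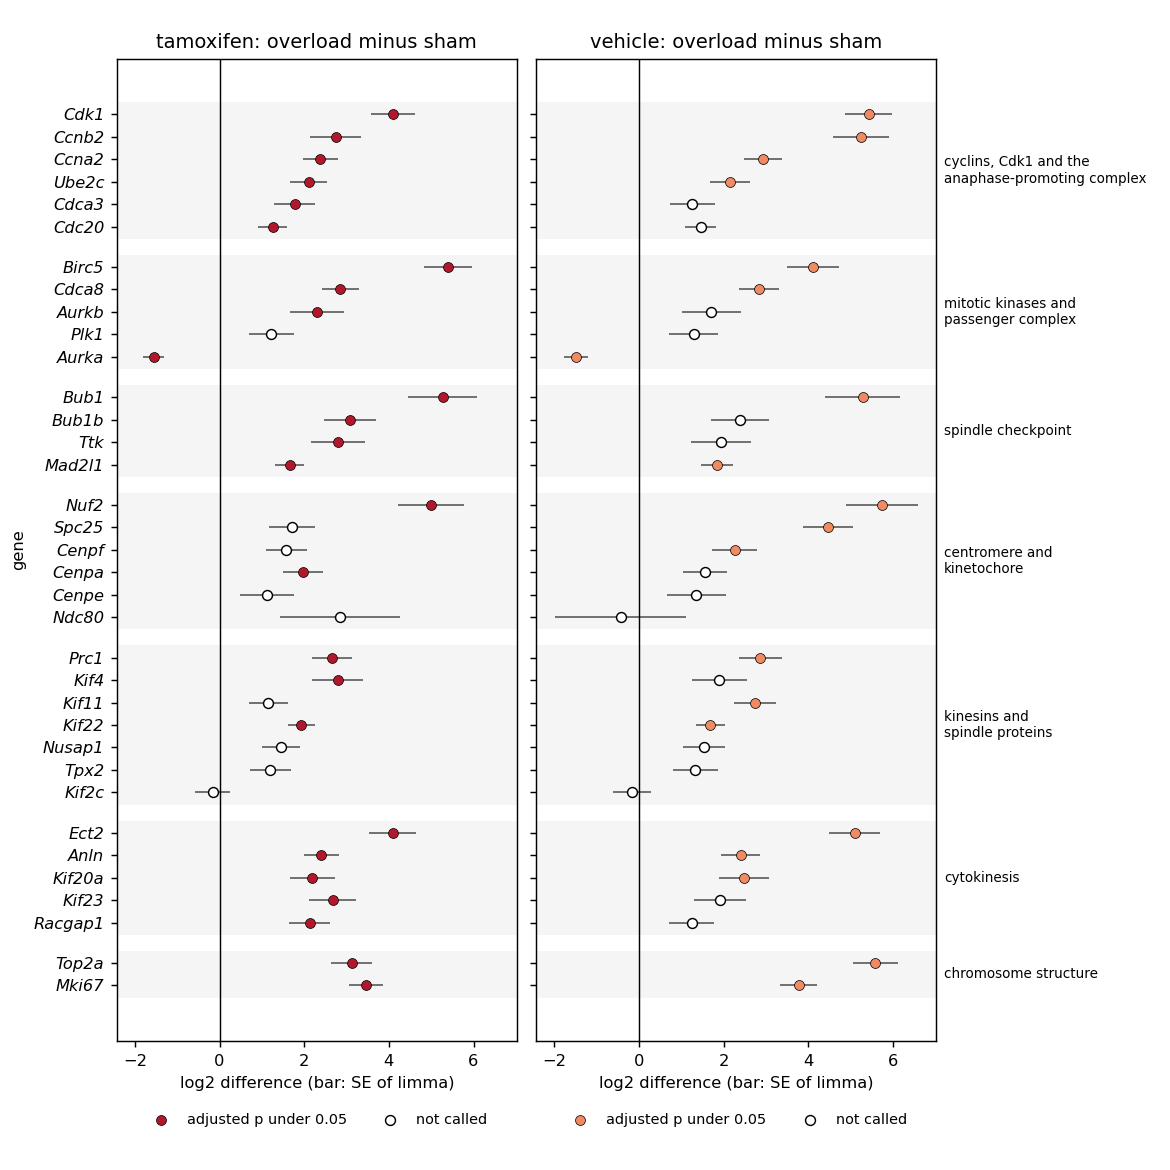
Difference between overload and sham in log2 units for each gene, with tamoxifen (left, 3 overload arrays) and with vehicle (right, 2 overload arrays), each against 1 sham array, with bars of 1 SE of limma and open points where the adjusted p was 0.05 or above. Filled points right of 0 number 25 with tamoxifen and 19 with vehicle, and Aurka is filled left of 0 in both. Where sham values lie below background, as for Cdk1, Bub1 and Nuf2, the plotted size is a fitted value and not a measured fold.

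Tamoxifen was then compared with vehicle within overloaded muscle. This comparison is of levels after overload, while a change in the response to overload is tested by the interaction above. The sham arrays also differed, with a median of 0.38 for the list, tamoxifen minus vehicle. No gene of the list was called by limma (0 of 35, against 0% of all genes), and 0 had an unadjusted p under 0.05, against 1932 of all 18193 genes. Of 35 genes 33 had a positive difference, as did 9609 of all 18193 genes, with a median of 0.41, against 0.03 over all genes. Macrophage markers mostly had the same sign, with a median of 0.52, 15 of 16 positive and 10 at an unadjusted p under 0.05. Endothelial markers had a median of 0.35 (11 of 12 positive), and pericyte and smooth muscle markers 0.32 (9 of 10 positive). Markers of fibroblasts and fibro-adipogenic progenitors had a median of 0.26 (13 of 13 positive). Muscle fibre markers had a median of -0.19 (14 of 14 negative). Satellite cell and myoblast markers had a median of -0.51, with 12 of 14 negative and 5 at an unadjusted p under 0.05. None of these markers was called by limma after adjustment, and their part in the members' difference was not tested. For the mitosis and spindle genes the differences ran from -0.29 for Kif11 to 0.80 for Ect2, the gene with the lowest adjusted p by limma (adjusted p = 0.530). Ect2 and Cdca8 were the genes whose 3 tamoxifen arrays all lay above both vehicle arrays, against 16.9% of all genes. For Mki67 the difference was 0.45, with a 95% interval from -0.26 to 1.17, and for Cdk1 0.44, from -0.47 to 1.35. All 35 intervals held 0, 29 also reached a 2-fold higher level with tamoxifen and 3 a 2-fold lower one. The half-width of an interval was 0.87 at the median.

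Single arrays carried much of this spread. Tamoxifen overload replicate 2 was the highest of the 5 overload arrays for 34 of the 35 genes, the exception being Kif2c, with a median of 0.87 above the mean of the other 4 overload arrays, against 0.07 over all genes. Vehicle overload replicate 2 was the lowest for 28 genes, with a median of -0.70. Without tamoxifen overload replicate 2 the median difference between tamoxifen and vehicle was 0.09. Without vehicle overload replicate 2 it was -0.10. With the sex term kept, that fit compares the female pair alone, tamoxifen replicate 3 against vehicle replicate 1. Without replicate 2 of tamoxifen overload, 29 genes still rose with overload in the mean of both treatments (median 1.96), against 12.4% of all genes. With tamoxifen 16 rather than 25 rose, against 6.99% rather than 9.98% of all genes. Without replicate 2 of vehicle overload the median rise of the list in the mean of both treatments was 2.62. Tamoxifen overload replicate 2 also had the highest 3'/5' ratios (Gapdh 0.906, actin 1.20), macrophage markers at 0.52 and muscle fibre markers at -0.31, as medians against the other overload arrays. Macrophage markers were nearly as high on tamoxifen overload replicate 3, at 0.48, where the mitosis and spindle genes were at -0.05. Vehicle overload replicate 2 had satellite cell and myoblast markers 0.94 above the others, while endothelial markers were at -0.59, macrophage markers at -0.46, pericyte and smooth muscle markers at -0.46 and fibroblast markers at -0.36. The part of these in the results was not tested.

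The male and female arrays did not run alike. Between male overload arrays the median difference of the list, tamoxifen minus vehicle, was 0.80, or 0.32 with tamoxifen replicate 1 and 1.26 with tamoxifen replicate 2, both against the same vehicle array. Between the female overload arrays it was -0.10, the same comparison as the fit without vehicle overload replicate 2. Of 35 genes 20 were higher with tamoxifen on both male arrays and lower on the female array, a pattern that 13.5% of all genes had. Bub1 had 93.6 and 219 on the male tamoxifen arrays, against 64.5 on the male vehicle array, and 106 on the female tamoxifen array, against 154 on the female vehicle array. Kif23 had 198 and 374 on the male tamoxifen arrays, against 157 on the male vehicle array, and 203 on the female tamoxifen array, against 330.0 on the female vehicle array. A term for sex by treatment called 0 genes of the list and 0 of all genes (limma, 1 residual degree of freedom, adjusted p = 1), and 1 gene of the list had an unadjusted p under 0.05. Female against male, over both treatments, called 0 of the list by limma, against 0.0495% of all genes, with 0 genes at an unadjusted p under 0.05 and a lowest adjusted p of 0.983.

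**Figure D4:**
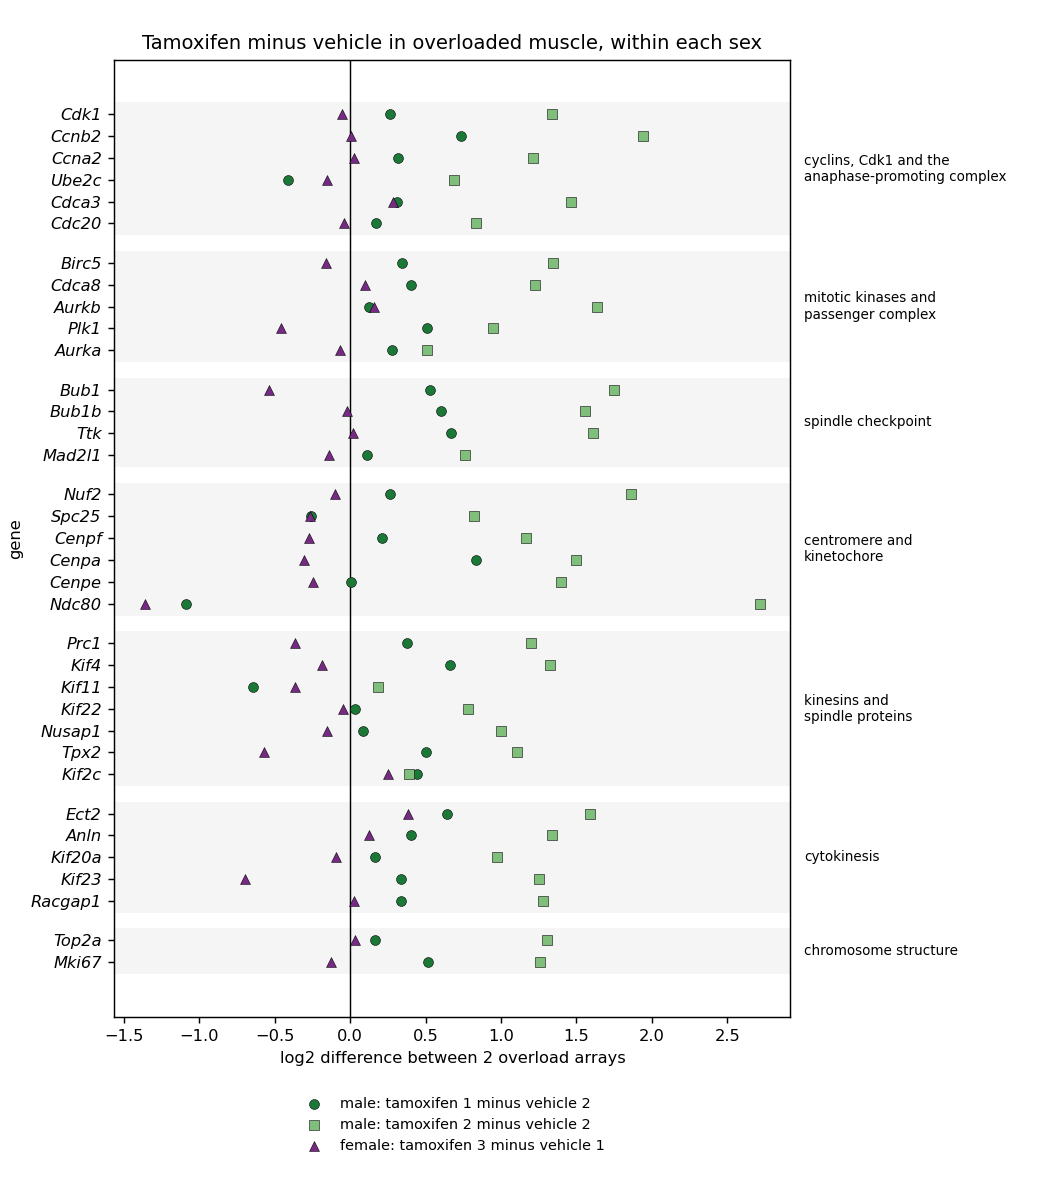
Difference in log2(signal + 1) between a tamoxifen and a vehicle overload array of the same sex for each gene, with both male tamoxifen arrays (circles and squares) against 1 male vehicle array and the female pair as triangles. Squares, tamoxifen replicate 2, lie right of 0 for all 35 genes, while 24 of the triangles lie left of 0.

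Other cell cycle genes were read against the same shares of all genes, 14.7% higher and 8.16% lower. Of 60 other mitotic genes 35 rose and 1 fell in overloaded muscle (median 1.67). Ncapg, a condensin subunit, Cdca2, which steers a phosphatase to chromosomes, Depdc1a and Sgo1, which guards cohesin at centromeres, were at least 1.68-fold, 1.93-fold, 1.67-fold and 1.55-fold higher. Pttg1 (securin), the inhibitor of separase, fell by 1.38 on the log2 scale. Of 31 genes of S phase and replication 14 rose and 1 fell (median 0.77). Rrm2, a subunit of ribonucleotide reductase, rose by 3.74 ± 0.32 and Mcm5, of the replicative helicase, by 2.52 ± 0.38. Gins2, of the same helicase, and Uhrf1, which keeps DNA methylation through replication, were at least 2.01-fold and 3.21-fold higher. The medians of these lists were lower than that of the mitosis and spindle genes, a description without a test.

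Transcription regulators of mitotic genes gave 4 that rose and 2 that fell among 17, counts near those shares. E2f2, E2f8, E2f1 and Lin37 rose, by 2.06, 1.55, 1.41 and 0.90. Foxm1, which drives genes of the transition into mitosis, had a signal of 80.2, 81.8 and 37.2 with tamoxifen and overload and 79.0 and 25.9 with vehicle and overload, against 14.7 and 38.4 on the tamoxifen and vehicle sham arrays. It was above background on 3 arrays, and its difference of 1.11 ± 0.65 did not pass (adjusted p = 0.278). Mybl2 (B-Myb) had 0.53 ± 0.41 (adjusted p = 0.413), and Lin54, the MuvB subunit that binds the CHR, 0.04 ± 0.22 (adjusted p = 0.935). The NF-Y subunits Nfyb and Nfyc fell by 0.59 and 0.55. Among 15 cell cycle inhibitors 6 rose and 1 fell. Cdkn1a (p21) rose by 2.14 ± 0.23 and Cdkn1c (p57) by 1.61 ± 0.26, both inhibitors of cyclin-dependent kinases. Of 16 core subunits of the anaphase-promoting complex 1 rose and 2 fell: Anapc15 rose by 0.87, and Anapc5 and Anapc13 fell by 0.81 and 0.51.

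Several marker lists of other cells also held more called genes than the 14.7% higher and 8.16% lower of all genes, while others did not. Among markers of macrophages and monocytes, 15 of 16 rose (median 2.02), and their summed signal was 37977, 53795 and 50717 with tamoxifen and overload and 33226 and 35801 with vehicle and overload, against 12459 and 7077 on the tamoxifen and vehicle sham arrays. Cd68, a lysosomal protein of macrophages, rose by 2.77 ± 0.18. Markers of fibroblasts and fibro-adipogenic progenitors rose in 9 of 13 cases (median 1.28), with a summed signal of 122229 to 136991 with tamoxifen and overload and 108566 to 130066 with vehicle and overload, against 50479.6 and 39339 on the tamoxifen and vehicle sham arrays. Of 14 satellite cell and myoblast markers 6 rose (median 1.15), with a summed signal of 7079.6 to 8877 with tamoxifen and overload and 8853 to 12029 with vehicle and overload, against 5628 and 4495 on the tamoxifen and vehicle sham arrays. Among them Myog, the factor of myoblast differentiation, rose by 3.39 ± 0.36, and Pax7 had 0.40 ± 0.81 (adjusted p = 0.781). Of 12 endothelial markers 2 rose and 2 fell (median 0.32), and Pecam1 had 0.44 ± 0.18 (adjusted p = 0.128). Of 10 pericyte and smooth muscle markers 2 rose, and of 10 T, B and natural killer cell markers 0 rose or fell by limma, 2 having an unadjusted p under 0.05 and Cd3e, Cd79a and Ncr1 being below background on all arrays. Of 14 muscle fibre markers 0 were called, with a median of -0.28 and 1 at an unadjusted p under 0.05. Which of these cells the mitotic transcripts came from was not tested.

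**Figure D5:**
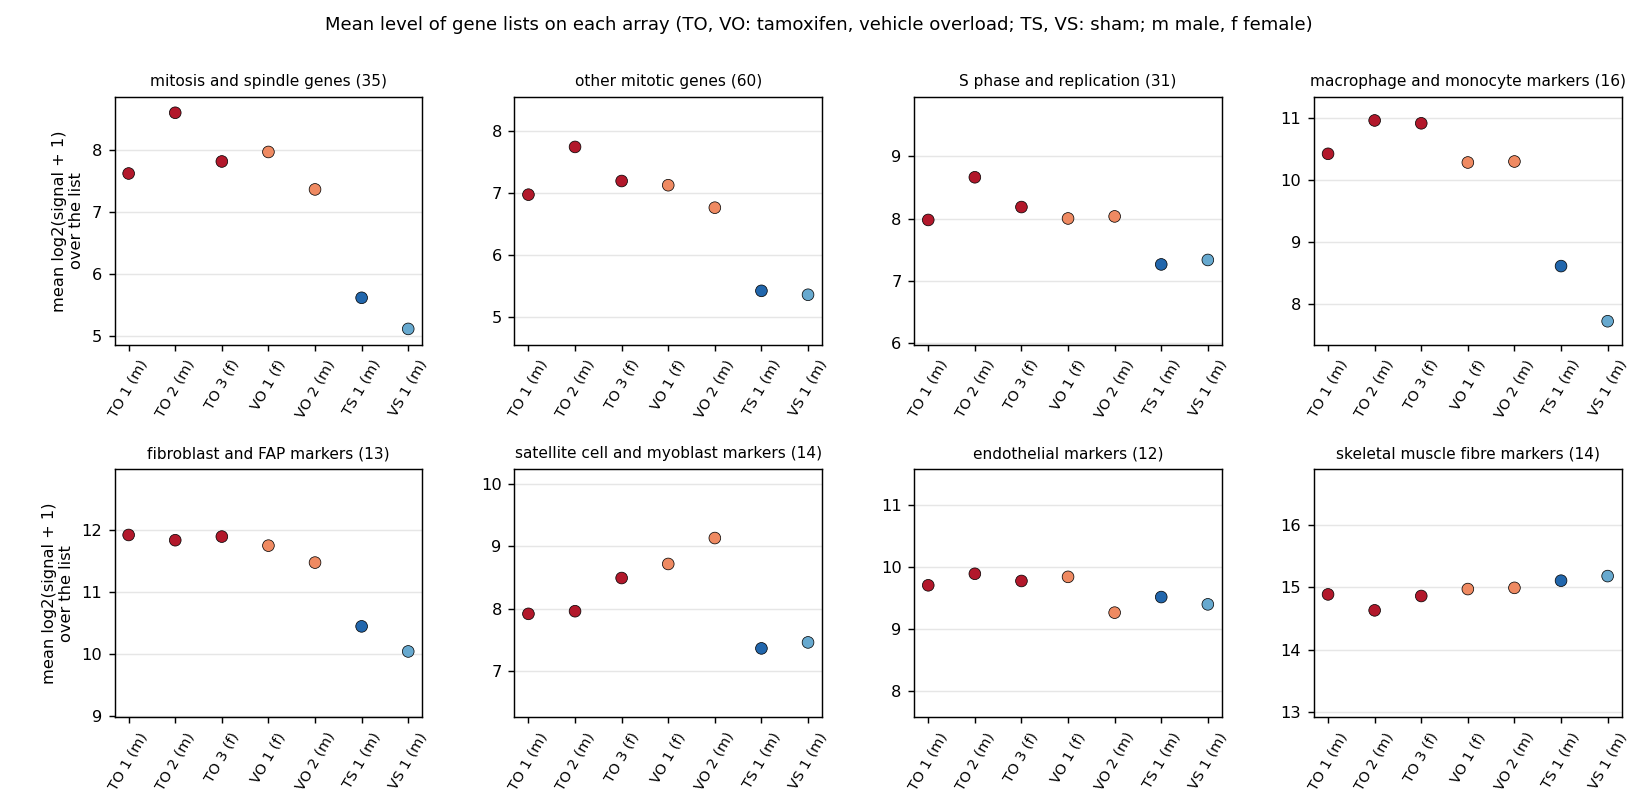
Mean log2(signal + 1) of 8 gene lists on each array, with tamoxifen overload (TO), vehicle overload (VO), tamoxifen sham (TS) and vehicle sham (VS) arrays, male (m) or female (f), and the number of genes in parentheses; every panel spans 4 log2 units. The mitosis and spindle genes are highest on tamoxifen overload replicate 2 and lowest on the sham arrays, while muscle fibre markers vary little.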

How the data were processed

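Plantaris RNA was read on 7 Affymetrix Mouse 430 2.0 arrays. The deposited file holds linear intensities, 1 per probe set and array. Per the submitters' processing notes Partek was used, version unstated, and no source used here says how probes were combined. The mean of the deposited intensities, after dropping the lowest and highest 2% of probe sets, is 500 on every array, so scaling by the authors was of whole arrays and cannot show a change in total RNA.

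Values were taken as log2(value + 1). Of 45101 probe sets 34945 have a single gene symbol and gave 18193 genes, each through its probe set with the highest mean. In limma 3.58.1 (R 4.3.3), a linear model took a term per group and one for sex, with variances moderated along the intensity trend (2 residual and 5.95 prior degrees of freedom). Tests were two-sided, with Benjamini-Hochberg adjustment over all genes, and SE is limma's. On simulated data with 200 of 18193 genes changed, the fit found 53.3% of 2-fold and 80.9% of 4-fold changes between overload and sham, and 8.36% of its calls were false, above the 5% aimed at. For tamoxifen against vehicle these were 52.3%, 78.7% and 9.63%. Far more genes were called between overload and sham in the data, 14.7% higher and 8.16% lower. The simulated shares therefore may not carry over to that contrast. A gene at or below background on both sham arrays is given as a bound, since its fitted fold is not measurable. The bound is the mean of its overload arrays against the background level and has no test. An adjusted p beside it is limma's for the fitted difference. The number of arrays limits the precision.

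The members and lists were chosen with earlier results of these data known. Values on every array are given for the members with the largest and smallest difference of each role and for Mki67, Top2a, Cdk1, Plk1, Aurkb, Bub1 and Nuf2, and for each other list up to 4 called genes with the largest differences, beside a few regulators and markers. The alternatives left out the sex term, the female arrays, the interaction, the intensity trend, all moderation, the sham arrays or dim genes. Others used medians or quantiles for scaling, a pseudocount of 16, the mean over the probe sets of a gene, every probe set, background at the 90th and 99th percentile, or TTTGAA alone, and each array was left out in turn. Dropping both the sex term and the trend, and a sex by treatment term, were added after seeing the data. Python 3.11.15 with matplotlib 3.10.9 drew the figures.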

Additional observations from a re-analysis of the deposited data

Results flagged for a closer look

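In overloaded muscle the median difference between tamoxifen and vehicle was above 0 between male arrays and slightly below 0 in the 1 female pair. The median difference of the 35 mitosis and spindle genes was 0.80 (log2) between the male arrays and -0.10 between the female arrays. With male tamoxifen replicate 1 it was 0.32 and with replicate 2 it was 1.26. Of the genes 20 were higher on both male tamoxifen arrays and lower on the female tamoxifen array, against 13.5% of all genes. There is 1 vehicle array of each sex, and both male differences share theirs. A term for sex by treatment called 0 of the list by limma, with 1 at an unadjusted p under 0.05, and the median of that term, female minus male, was -0.78, against 0.02 over all genes. Sex cannot be told apart from the single arrays that carry it.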

How the results depend on the processing

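Of 35 genes 32 kept the sign of their difference between overload and sham in every alternative, and 19 were called in each alternative that moderates variances along the trend. Counts of genes called in overload against sham went to 0 without the intensity trend (sex term kept) and with an ordinary linear model. This held for higher (30, with 31 and 19 at an unadjusted p under 0.05) and for lower (1). It held likewise with tamoxifen (25 and 1) and with vehicle (19 and 1). In the main fit 6292 of all 18193 genes had an unadjusted p under 0.05, in either direction. With neither sex term nor trend, 26 were higher and 1 lower in the mean of both treatments, against 11.7% and 4.11% of all genes. In that fit 7 were higher and 1 lower with tamoxifen, against 3.28% and 0.412%. With vehicle 10 were higher and 0 lower, against 2.06% and 0.242%. With the mean of probe sets the count of lower genes was 0 in the mean of both treatments and in each. The difference of Aurka was then near 0, at 0.0925 (limma, adjusted p = 0.918), in place of -1.52. That mean takes in an Aurka probe set above background on 0 arrays. A pseudocount of 16 gave a median of 1.77 for overload against sham in place of 2.30. Male arrays alone gave a median of 0.80 for tamoxifen against vehicle in place of 0.41. With background at the 99th percentile 4 genes in place of 12 were above it on both sham arrays. Leaving out 1 array at a time gave a median of 1.96 to 2.62 for overload, and -0.10 to 0.80 for tamoxifen against vehicle. The 0.80 came without either female array and the -0.10 without vehicle overload replicate 2. Without 1 of the tamoxifen overload arrays, 29 to 31 genes were higher in the mean of both treatments, against 12.4% to 16% of all genes. With tamoxifen 16 to 29 were higher, against 6.99% to 12.3%, the 16 without tamoxifen overload replicate 2. With vehicle 16 to 24 were higher, against 4.34% to 9.28%. In each 1 was lower, against 6.51% to 9.83%, 3.37% to 7.32% and 1.28% to 4.45%. Without the tamoxifen sham array 26 were higher in the mean, against 11.6%, and without the vehicle sham array 21, against 8.07%. Without a vehicle overload array that group has 1 array left, and the counts are left out here. A fit without a sham array cannot give the contrast of that treatment or the interaction. One without a female array leaves the male arrays nearly alone. Without vehicle overload replicate 2, tamoxifen against vehicle is the comparison of the female pair. Without tamoxifen overload replicate 2, 6.99% of all genes were higher with tamoxifen, in place of 9.98%. Median centring moved the median of all genes to -0.22, from 0.07, and the share of higher among all called genes to 39.1%, from 64.3%, while the median of the list was 2.00. The promoter count was 27 windows with TTTGAA alone, in place of 28. No paired analysis was possible because the labels give a replicate number to the male tamoxifen overload arrays alone. Low sham signals limit the folds, and the unreplicated sham groups limit every contrast with them.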
